A study of Bombyx mori with 8 samples.

Results

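Stretches of the silkworm (Bombyx mori) genome in which fat body peaks of G-quadruplex signal lie close together are described here. The numbered sequences 2 to 28 of the assembly were cut into 100-kb windows from their first base, and the summit of each peak, its highest point, was assigned to a window. A window was called dense when it held at least 4 summits of fat body replicate 1 and at least 3 of fat body replicate 2. This gave 571 dense windows of 4250 (13.4%), and the remaining 3679 are called the other windows. The fat body counts chose the windows, so those counts are a description and carry no test. The counts of the brain lists were not used in the choice.

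A G-quadruplex (G4) is a 4-stranded DNA structure that forms where runs of guanines stack on each other, and such structures are often mapped to open promoters. CUT&Tag finds them in nuclei with an antibody that tethers the Tn5 transposase, which inserts sequencing adaptors into DNA close by. The fat body is the insect organ of storage, intermediary metabolism and blood protein synthesis, with roles like those of liver and adipose tissue in vertebrates. The larval brain is built of neurons and glia.

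The lists compared were 2 libraries of brain and 2 of fat body, each from wild-type silkworms of strain P50 at the stage coded L5D3, all labelled with the antibody BG4. The labels name 8 samples, and the IgG library, the brain library at stage P0 and the 2 libraries of the ovarian line BmN are not used here. The labels do not tie replicates to separate animals, and differences between them may be technical. Text in the fat body peak names reads 1H6, a different G4 antibody from the labelled BG4, whereas peak names read BG4 in brain replicate 1 and neither in brain replicate 2. Antibody and tissue therefore cannot be told apart. On sequences 2 to 28 the lists held 6440 and 32498 brain peaks and 8306 and 5732 fat body peaks (replicates 1 and 2), and brain replicate 2 stood apart by its length. No gene annotation of this assembly was used, so windows are given by sequence number and 1-based position only.

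Dense windows held many more fat body summits than the threshold asked for in some places and just enough in others. Fat body replicate 1 had 3429 summits in them, from 4 to 15 per window with a median of 5, and fat body replicate 2 had 2353, from 3 to 9 with a median of 4. They thus took up 41.3% and 41.1% of the 2 lists. Means were 6.01 ± 2.05 and 4.12 ± 1.24 summits (SD over 571 windows) against 1.33 ± 1.71 and 0.918 ± 1.07 in the other windows. In 80 windows both counts sat exactly at the threshold, and 39 windows reached at least 8 and 6 summits. Just outside, 138 windows had enough summits in replicate 2 and were 1 summit short in replicate 1, and 220 had enough in replicate 1 and were 1 short in replicate 2.

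Windows picked on one fat body library were also rich in the library that had not picked them. The 940 windows with at least 4 summits of replicate 1 held 3.10 ± 1.64 summits of replicate 2, against 0.850 ± 1.09 in the remaining 3310, a ratio of 3.65. The 857 windows with at least 3 summits of replicate 2 held 4.74 ± 2.50 summits of replicate 1, against 1.25 ± 1.74, a ratio of 3.79. Of the first set 60.7% and of the second 66.6% passed both thresholds. Among all 4250 windows, 857 reached the replicate 2 threshold and 940 the replicate 1 threshold. In 25 windows replicate 1 reached its threshold while replicate 2 had no summit. Of the other windows as a whole, 45.7% had no replicate 2 summit.

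The 10 richest dense windows lie on 7 sequences. The first, on sequence 18 from 12800001 to 12900000, held 15 and 8 fat body summits (replicates 1 and 2), 4 of brain replicate 1 and 11 of brain replicate 2. In it 7 of the 15 fat body replicate 1 peaks were overlapped by a replicate 2 peak and 4 by brain replicate 1, and its closest fat body replicate 1 summits were 1524 bp apart. The next, on sequence 5 from 3600001 to 3700000, held 11 and 9 fat body summits, with 3 and 4 in the brain lists. Its left neighbour, from 3500001 to 3600000, was also among the 10, with 11 and 7 fat body summits and 2 and 8 in the brain lists.

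Sequences 15 and 8 each gave another pair of the 10. On sequence 15 they run from 500001 to 600000 (12 and 8 fat body summits, 5 and 12 brain summits) and from 10500001 to 10600000 (14 and 6, with 3 and 3). On sequence 8 they run from 6600001 to 6700000 (13 and 7, with 6 and 6) and from 14800001 to 14900000 (10 and 8, with 3 and 9). These pairs were not adjacent. The last 3 were on sequence 24 from 17100001 (10 and 8, with 9 and 11), sequence 25 from 7500001 (10 and 8, with 5 and 14) and sequence 3 from 1600001 (12 and 6, with 5 and 9). Brain replicate 1 counts in these 10 windows ran from 2 to 9 and overlapped those of less crowded dense windows.

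Dense windows were found on all 27 sequences and made up different shares of them. Sequence 5 had the highest share, 41 of 191 windows (21.5%), followed by sequence 10 with 36 of 176 (20.5%) and sequence 3 with 31 of 152 (20.4%). The lowest shares were on sequence 26, with 5 of 115 (4.35%), sequence 2, with 4 of 84 (4.76%), and sequence 7, with 8 of 139 (5.76%). The 9 shortest sequences together had 9.35% dense windows, the middle 9 had 13.9% and the 9 longest 15.7%. Across the 27 sequences, which share their libraries, the share and the number of windows had a Pearson r of 0.55 and a Spearman rho of 0.54, given as a description. Within sequences, 13.1% of the 10 windows at each end were dense, 9.26% of windows 11 to 30 from an end, 12.2% of windows 31 to 60 and 19.6% of those further in, which only longer sequences have.

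Neighbouring windows were often dense together. The 571 windows formed 423 runs, of which 319 were single windows, 72 had 2 windows, 22 had 3, 8 had 4 and 2 had 5. Runs of 2 or more thus held 252 windows (44.1%). Of the 1136 windows next to a dense one, counted once for each side, 296 (26.1%) were dense, beside 13.4% of all windows. Windows in runs held 6.43 ± 2.20 and 4.19 ± 1.34 fat body summits (SD over windows) and single ones 5.67 ± 1.87 and 4.07 ± 1.15, as a description of the counts that chose them.

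The longest runs spanned 500 kb each. On sequence 8 from 6300001 to 6800000, fat body replicates 1 and 2 had 36 and 20 summits and brain replicates 1 and 2 had 16 and 23. Fat body replicate 1 summits there lay a median of 7103 bp apart, the closest 553 bp and the widest gap 85397 bp, and 19 of the 36 peaks were overlapped by fat body replicate 2, 13 by brain replicate 1 and 9 by brain replicate 2. Brain replicate 2, the longest list, had fewer summits in this run than fat body replicate 1. On sequence 3 from 500001 to 1000000 the fat body lists had 28 and 24 summits and the brain lists 16 and 67. Here the median spacing was 12480 bp in fat body replicate 1, and brain replicate 2 stood above all other lists with 13.4 summits per window. The runs had equal counts in brain replicate 1 and differed in brain replicate 2, by 23 against 67.

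Runs of 400 kb followed on sequences 10, 22 and 23. Sequence 10 from 7500001 to 7900000 held 33 and 19 fat body summits and 19 and 30 brain summits, sequence 22 from 10600001 to 11000000 held 31 and 17 with 13 and 30, and sequence 23 from 11000001 to 11400000 held 31 and 17 with 12 and 34. In each named run 1 fat body peak is given, the one shared by both fat body lists whose smaller fold of the 2 was highest. The fold is the authors' value, the height of the summit over a local background. In all 5 runs this peak was also overlapped by peaks of both brain lists. Among all peaks in dense windows, 21.6% of fat body replicate 1 and 31.3% of replicate 2 were overlapped by both. The 5 peaks were picked for high fold, and the share among peaks of similar fold elsewhere was not measured. On sequence 10 the peak so picked lies at 7557703 to 7558593, with folds of 13.9 and 14.4 in fat body replicates 1 and 2 and 10.1 and 5.66 in brain replicates 1 and 2. On sequence 3 it lies at 859968 to 861017, with folds of 12.5 and 13.1 in fat body, summit heights of 419 and 327 fragments, and folds of 9.39 and 7.87 in brain. On sequence 8 it lies at 6743742 to 6744463 with fat body folds of 10.9 and 10.8, on sequence 22 at 10979044 to 10979525 with 10.1 and 11.6, and on sequence 23 at 11085894 to 11086652 with 9.72 and 13.3. These last 3 runs also held peaks with a higher fold in 1 list, up to 12.4 in fat body replicate 2 on sequence 8, 11.6 and 14.4 in replicates 1 and 2 on sequence 22, and 14.8 in replicate 1 on sequence 23.

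**Figure D1:**
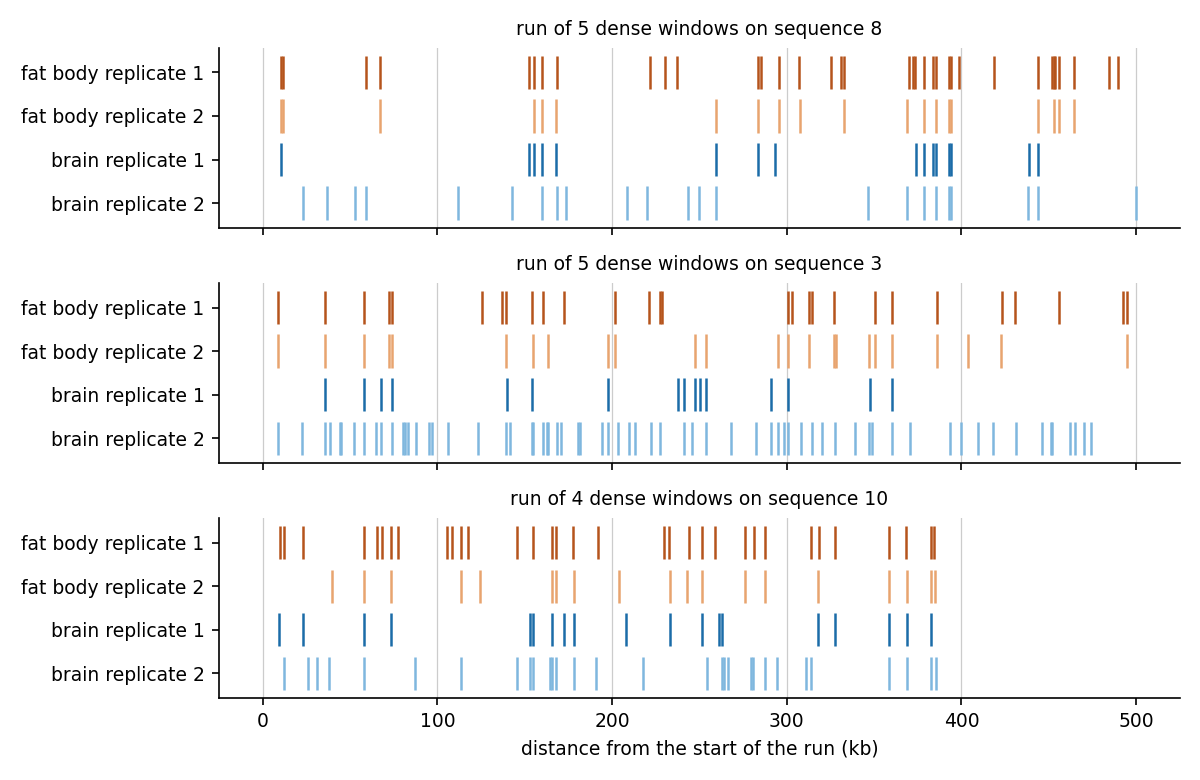
Summits in the 3 highest ranked runs of dense windows. Each line is 1 summit at its distance in kb from the start of the run, 1 row per list, and grey lines mark the edges of the 100-kb windows. The brain replicate 2 row has 23 summits in the run on sequence 8 and 67 in the run on sequence 3, where brain replicate 1 has 16 in each.

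Inside dense windows, fat body summits lay a median of 9049 bp apart in replicate 1 and 14050 bp in replicate 2, a mean of 11549 ± 3537 bp (SD, n = 2). In the other windows the medians were 12070 and 20957 bp, where fewer summits share a window. At the same number of summits per window, spacing in dense and other windows differed less. The count in a window largely sets this spacing. Other windows with at least 4 replicate 1 or at least 3 replicate 2 summits missed only the threshold of the other replicate. With 4 replicate 1 summits the median was 11595 bp in 167 dense windows and 12099 bp in 164 other windows, and with 3 replicate 2 summits it was 18534 and 19661 bp. With 5 and 6 replicate 1 summits the medians were 10837 and 10157 bp, and 8903 and 9929 bp, in dense and other windows. Gaps under 5 kb made up 18.6% and 19.5% of those between replicate 1 summits in dense and other windows with 4, 18.8% and 23.8% with 5, and 24.7% and 28.8% with 6. In replicate 2 the medians were 15212 and 15448 bp with 4 summits, 12531 and 13825 bp with 5, and 11493 and 19500 bp with 6, a count that only 3 other windows had. At the same count, close gaps of replicate 1 were thus no more frequent in dense windows.

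Summits were spread over most of a dense window. The distance from the first to the last replicate 1 summit had a median of 65879 bp and a range of 7831 to 98637 bp, and it was under 50 kb in 151 of 571 windows (26.4%). In replicate 2 the median was 59718 bp and 206 windows (36.1%) were under 50 kb. A pair of replicate 1 summits under 5 kb apart was found in 399 windows (69.9%), and the median closest gap was 2729 bp. In replicate 2, which has fewer summits per window, 203 windows (35.6%) had such a pair. Span and closest gap depend on the number of summits in a window, and they were not measured in the other windows. As given above, replicate 1 gaps under 5 kb were no more frequent in dense windows at the same count.

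The 2 brain lists differed in how they filled the dense windows. Brain replicate 1 had 3.06 ± 1.71 summits per dense window (SD over 571 windows) and 1.28 ± 1.25 per other window, a ratio of 2.40. Brain replicate 2 had 7.49 ± 3.09 and 7.67 ± 3.06, a ratio of 0.976. The 95% intervals of these ratios, from exact binomial limits on the share of summits in dense windows, were 2.27 to 2.54 and 0.945 to 1.01. They cover counting error only, and neighbouring windows are not independent. With 1 ratio per brain library and 2 libraries that disagree, no p is given for brain, and the higher count is a measurement of brain replicate 1 alone.

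In brain replicate 1 the dense windows held from 0 to 9 summits with a median of 3, and the other windows from 0 to 8 with a median of 1. No brain replicate 1 summit was found in 21 dense windows (3.68%) and in 1190 other windows (32.3%), where the share over all windows was 28.5%. At least 4 summits, a count that 9.53% of all windows reached, were found in 208 dense windows (36.4%) and 197 other windows (5.35%). The 2 distributions overlapped over the whole range up to 8 summits. In brain replicate 2 the dense windows held from 2 to 20 summits and the other windows from 0 to 21, with a median of 7 in both. At least 12 summits, reached by 10.8% of all windows, were found in 58 of 571 dense windows (10.2%) and 403 of 3679 other windows, both near that background. No brain replicate 2 summit was found in 8 windows (0.188% of all), none of them dense.

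**Figure D2:**
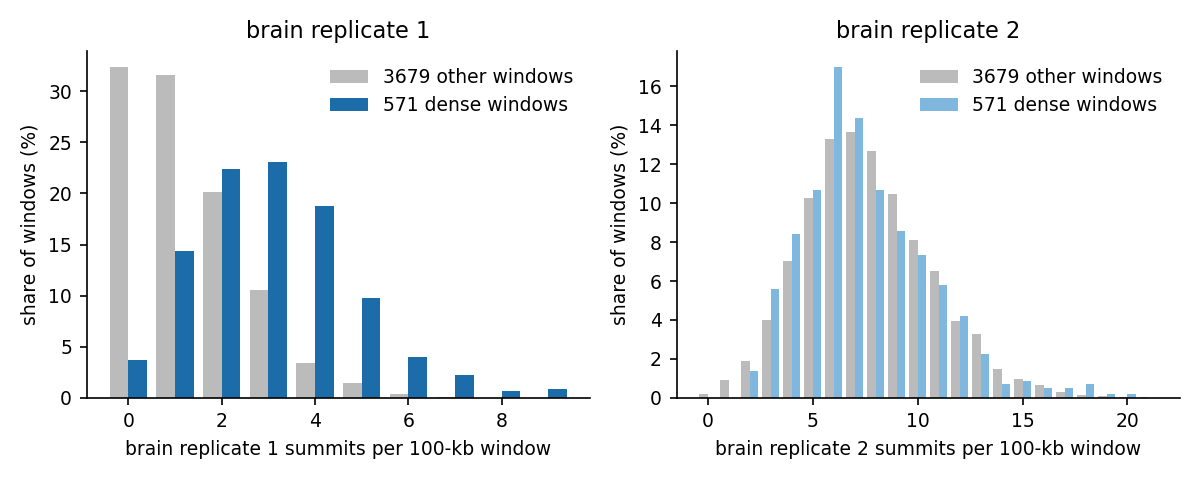
Share of dense and other windows (%) by the number of brain summits they hold, for brain replicate 1 (left) and brain replicate 2 (right). The brain replicate 1 bars of dense windows lie further right, with a median of 3 against 1, and those of brain replicate 2 lie on each other, with a median of 7 in both.

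The difference held sequence by sequence in brain replicate 1. Its dense windows had a higher mean than the other windows of the same sequence on 27 of 27 sequences, with ratios from 1.47 on sequence 14 to 3.56 on sequence 28 and a median of 2.38. In brain replicate 2 the dense windows were higher on 13 sequences and lower on 14, from 0.798 on sequence 21 to 1.37 on sequence 27. The mean within-sequence difference was 1.75 ± 0.373 summits (SD over 27 sequences) in brain replicate 1 and 0.0738 ± 1.13 in brain replicate 2. The sequences of a list share 1 library and are not replicates, and sequence 2 had only 4 dense windows, so these values are a description. By distance from the sequence end, the brain replicate 1 ratio was 2.37, 2.44, 2.43 and 2.23 from the outermost zone to the innermost.

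Brain replicate 1 followed the fat body count below and above the threshold. Windows without a replicate 1 fat body summit (1665) had 0.815 brain replicate 1 summits on average, windows with 2 had 1.78, windows with 4 had 2.21 and windows with at least 8 had 3.18. Brain replicate 2 went from 8.20 in windows with none to 7.15 in windows with 2 and 7.65 in windows with at least 8. Over all 4250 windows, Spearman's rho of brain replicate 1 was 0.49 with fat body replicate 1 and 0.55 with replicate 2, while that of brain replicate 2 was -0.15 and -0.080. The brain lists had a rho of 0.019 with each other and the fat body lists 0.77. These values describe windows that share their libraries, and base composition and mappability were not measured. The 80 windows exactly at both thresholds had 2.44 ± 1.29 brain replicate 1 summits. Those 1 summit short in replicate 1 or in replicate 2 had 2.50 ± 1.46 and 2.15 ± 1.40. Windows 1 short had no upper limit in the other fat body replicate, where they held means of 3.60 and 5.24 summits. These classes therefore cannot show whether brain counts step at the threshold.

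**Figure D3:**
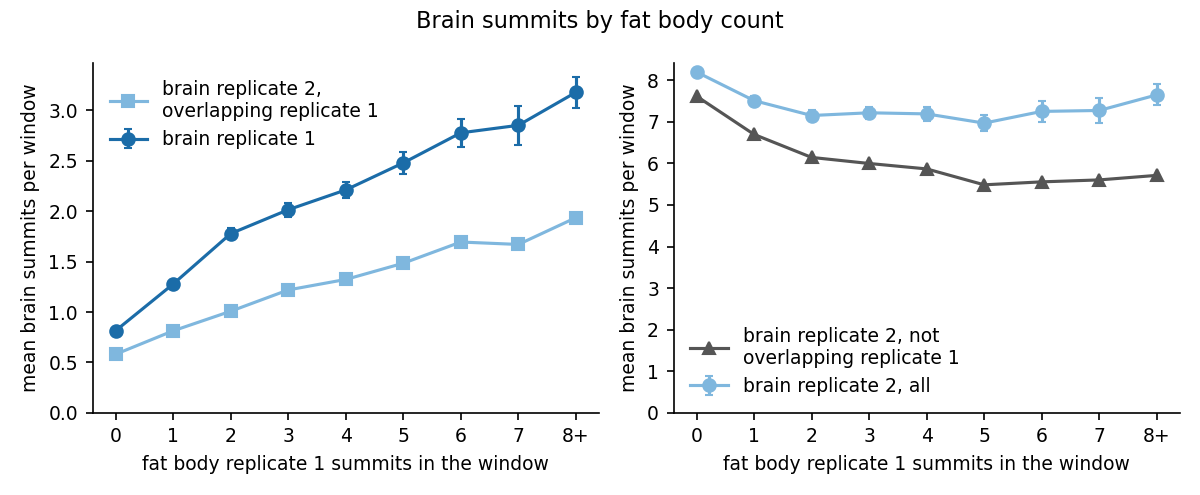
Mean brain summits per window (with the standard error over windows where drawn) by the number of fat body replicate 1 summits in the window, 8+ standing for at least 8. Left, brain replicate 1 goes from 0.815 to 3.18, and brain replicate 2 peaks that overlap a replicate 1 peak from 0.581 to 1.94. Right, all brain replicate 2 summits and those of peaks that overlap no replicate 1 peak, which go from 8.20 to 7.65 and from 7.62 to 5.71.

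Most brain replicate 1 peaks in dense windows sat on fat body peaks. Brain replicate 1 peaks that overlapped a fat body peak by at least 1 bp numbered 2.32 per dense window and 0.524 per other window, a ratio of 4.44. Those that overlapped none numbered 0.737 and 0.752, a ratio of 0.981 (counting interval 0.883 to 1.09). The higher brain replicate 1 count of dense windows lay in the overlapping set. The set without overlap had a count close to that of other windows. The fat body peaks that made this split also chose the windows. Windows with more fat body peaks offer more places to overlap, which raises the first ratio and lowers the second. Neither ratio is therefore independent of the choice of windows. With only peaks from a −log10 q of 20 up in every list, the second ratio was 1.33. Split by fold into 4 equal bins, brain replicate 1 peaks gave ratios of 2.27, 2.42, 2.45 and 2.45 from the lowest bin to the highest.

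Brain replicate 2 peaks were also split by whether they overlapped a brain replicate 1 peak. Its 4029 peaks that overlapped a brain replicate 1 peak numbered 1.88 per dense window and 0.804 per other window, a ratio of 2.34 (counting interval 2.18 to 2.51). Its remaining 28469 peaks numbered 5.61 and 6.87, a ratio of 0.817 (0.787 to 0.847). Peaks of this list overlapping a fat body peak numbered 2.39 and 0.568, a ratio of 4.20. Those overlapping none numbered 5.10 and 7.10, a ratio of 0.718. More fat body peaks in a window leave fewer brain peaks off them, so both ratios follow in part from the choice of windows. Split by fold into 4 equal bins, brain replicate 2 gave ratios of 0.878, 0.997, 1.05 and 0.978 from lowest to highest. These lay closer together than the ratios of the splits by overlap. Peaks overlapping brain replicate 1 share its places, so a ratio near that of brain replicate 1 follows largely from the split. Taking them out lowers the ratio of the remaining peaks for the same reason. The split therefore does not show that brain replicate 2 holds separate kinds of peak.

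**Figure D4:**
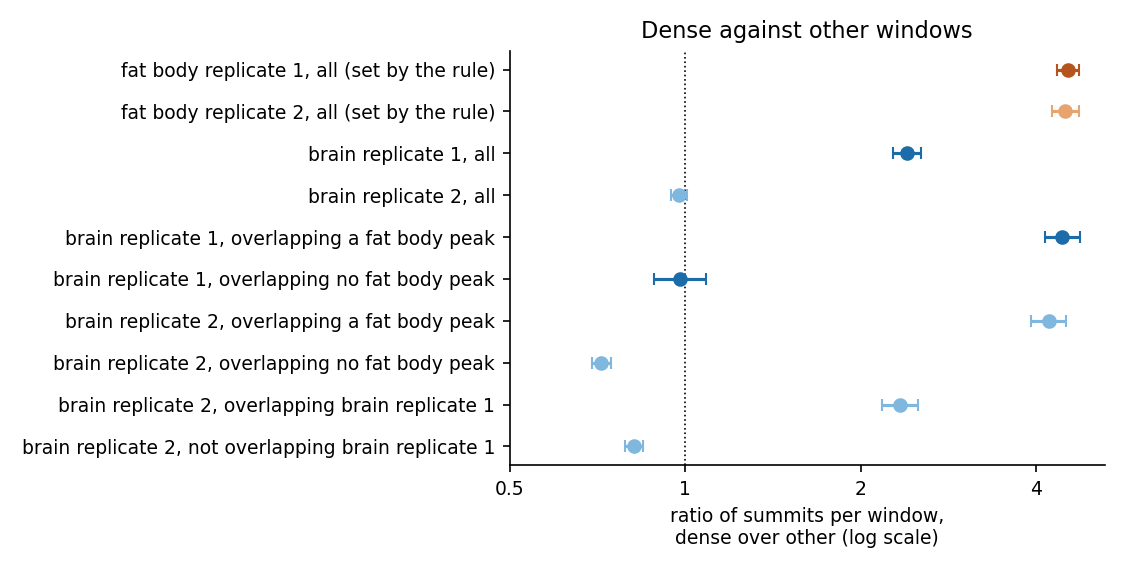
Ratio of summits per dense window to summits per other window on a log scale, for each whole list and for brain peaks split by overlap. Bars are 95% counting intervals and the dotted line marks a ratio of 1. The fat body ratios of 4.53 and 4.49 were set by the choice of windows. Brain replicate 1 stands at 2.40, brain replicate 2 at 0.976, and brain replicate 1 peaks off fat body peaks at 0.981.

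Seen from the fat body peaks, the share overlapped by brain was similar in dense and other windows. Of fat body replicate 1 peaks, 35.7% in dense and 31.5% in other windows were overlapped by brain replicate 1, and 34.7% and 33.1% by brain replicate 2. Of fat body replicate 2 peaks, 50.5% and 48.3% were overlapped by brain replicate 1, and 43.1% and 42.9% by brain replicate 2. The 4 differences averaged 2.05 ± 1.66 percentage points (SD over 4 pairs of lists, which reuse the same libraries). That direction was not stable. With windows chosen on replicate 2 alone, its 2 pairs averaged -1.20 points, where both thresholds together gave 2.20 and 0.182. With windows chosen on replicate 1 alone, its 2 pairs averaged -6.91 points, where both thresholds together gave 4.18 and 1.64. With 50% of the fat body peak covered in place of 1 bp, the mean of the 4 pairs was -0.123 points. Overlap between the fat body lists, which the choice favours, was 56.5% and 43.4% of replicate 1 peaks and 82.2% and 62.5% of replicate 2 peaks in dense and other windows.

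Many dense windows held both places shared with brain and places without a brain peak. A fat body replicate 1 peak overlapped by all 3 other lists was found in 416 of 571 dense windows (72.9%) and in 19.4% of other windows. A peak overlapped by fat body replicate 2 and by neither brain list was found in 395 dense windows (69.2%) and in 15.8% of other windows. Windows chosen for more fat body peaks hold at least one of either kind more often by that choice. Per fat body replicate 1 peak, the first kind made up 19.8% in dense and 16.4% in other windows, and the second 18.3% and 13.1%, and overlap between the fat body lists is itself favoured by the choice. Per dense window there were 1.19 of the first kind and 1.10 of the second. In 3 dense windows no fat body replicate 1 peak overlapped a replicate 2 peak, although both counts passed.

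The dense windows with the most brain replicate 1 summits all held 9. They lie on sequence 27 from 8700001 (6 and 4 fat body summits, 19 of brain replicate 2), sequence 21 from 9400001 (8 and 5, with 18), sequence 7 from 9200001 (6 and 5, with 15), sequence 24 from 17100001, named above, and sequence 21 from 2000001 (7 and 5, with 9). The first 3 were also crowded in brain replicate 2. At the other end, the 21 dense windows without brain replicate 1 summits were led by sequence 4 from 1200001 (4 and 3 fat body summits), sequence 8 from 12500001 (8 and 3), sequence 15 from 12800001 (6 and 3) and sequence 19 from 14200001 (4 and 4), each with 3 brain replicate 2 summits, and sequence 20 from 3300001 (5 and 3), with 5. Sequence 8 at this place had fat body folds of up to 7.98 and 8.32 while brain replicate 1 called no peak, which does not show that its signal was absent.

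Counts fell within 200 to 300 kb of a dense window. The 780 windows next to a dense one, themselves not dense, had 2.08 fat body replicate 1 and 1.27 replicate 2 summits, and windows at least 800 kb away had 0.997 and 0.756. Brain replicate 1 had 1.52 ± 0.0462 (SEM over windows) next to a dense window, 1.37 ± 0.0525 at 200 kb, 1.18 ± 0.0557 at 300 kb and 1.13 ± 0.0417 from 800 kb on. Brain replicate 2 was lowest next to dense windows, at 7.13 ± 0.107, against 7.89 ± 0.114 from 800 kb on and 7.49 ± 0.129 inside. Neighbours of dense windows are limited from above by not being dense themselves, which caps their fat body counts. Brain replicate 1 counts followed the fat body counts over all windows (rho 0.49 and 0.55), so the same limit can lower them too. How much of the drop beside dense windows comes from this was not measured.

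**Figure D5:**
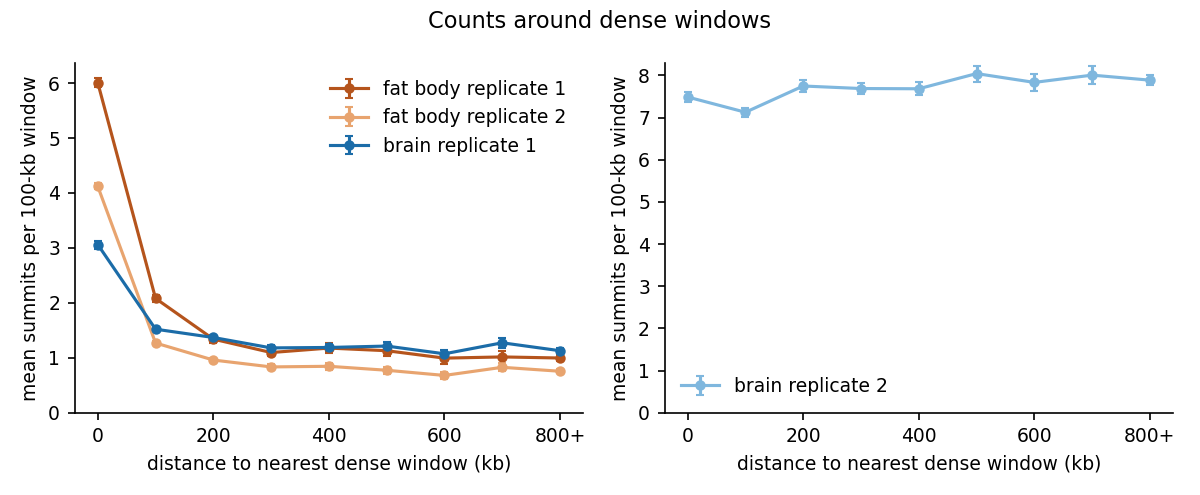
Mean summits per 100-kb window, with the standard error over windows, by distance in kb to the nearest dense window, 0 being the dense windows and 800+ standing for 800 kb or more. Fat body replicates 1 and 2 and brain replicate 1 (left) drop from 6.01, 4.12 and 3.06 to 2.08, 1.27 and 1.52 at 100 kb, and brain replicate 2 (right) stays between 7.13 and 8.04.

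Peaks in dense windows were taller and wider in 3 lists at nearly the same fold. Median summit height, solved from the deposited fold and −log10 p, was 65 fragments in dense and 53 in other windows in fat body replicate 1, 47 and 41 in fat body replicate 2 and 57 and 46 in brain replicate 1, and 70 and 66 in brain replicate 2. The local background under these peaks moved the same way, from 8.94 fragments in other to 11.9 in dense windows in fat body replicate 1, from 5.16 to 6.02 in fat body replicate 2 and from 8.69 to 10.2 in brain replicate 1, and was 12.4 and 12.1 in brain replicate 2. Its part in the counts of dense windows was not tested. Median folds were 4.92 and 5.11 in fat body replicate 1, 6.77 and 6.81 in replicate 2, 5.14 and 5.11 in brain replicate 1 and 5.22 and 5.10 in brain replicate 2. Median widths in dense and other windows were 543 and 507 bp, 537 and 503 bp and 546 and 479 bp in fat body replicates 1 and 2 and brain replicate 1, and 387 and 407 bp in brain replicate 2. The number of fat body peaks chose the windows, whereas their height, background, fold and width did not enter the rule. The quartiles of all these measures overlapped between dense and other windows.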

How the data were processed

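CUT&Tag peak lists of 2 brain and 2 fat body libraries were used, 1 list per library. The submitters' processing notes name MACS2 2.1.0, Bowtie2, Trim Galore, deepTools 3.3.0 and Picard. Their order and settings, and the genome build, are not given in the sources used here. The deposited lists hold positions, a score (10 times the −log10 q, rounded down), a fold enrichment ratio, and −log10 p and −log10 q. The lowest −log10 q was 5.01 to 5.21, so weaker peaks are not listed. The number of reads is unknown, and median summit heights were 49, 66, 58 and 43 fragments.

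Summits were counted per window with Python 3.11.15 and pandas 2.3.3. Sequence lengths are not in the lists, so each sequence ended with the window of its last summit in any list. Overlap meant at least 1 bp. Summit height and background were solved from fold = (height + 1)/(background + 1) and a Poisson upper tail for p, with a whole height found for 100% of peaks within 0.02 on the −log10 p scale. Counting, overlap and height steps were checked on simulated lists. Intervals are exact binomial (95%) from scipy 1.17.1.

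Windows of 1 library are not replicates, and 2 against 2 libraries cannot reach an exact p under 0.333, so no p is given. The windows, thresholds and comparisons were chosen with earlier results of these data known. Named windows are the 10 with the most fat body summits, the 5 longest runs, and the 5 with the most and the 5 with the fewest brain replicate 1 summits. Alternatives changed the window size and start, thresholds, summit position, −log10 q limit, list length, overlap and libraries.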

Additional observations from a re-analysis of the deposited data

How the results depend on the processing

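No paired analysis was possible because the results come from no test and replicate numbers are not stated to pair the libraries. The number of dense windows (571) and of runs of 2 or more (104) was 198 and 30 with 200-kb windows of at least 8 and 6 summits, 257 and 31 with at least 5 and 4 summits, 1052 and 255 with at least 3 and 2, and 133 and 7 with only peaks from a −log10 q of 20 up, each of which asks for more or fewer summits by construction. With windows chosen on 1 fat body list, they ranged from 857 to 940 and from 178 to 228. Starting the windows at position 50000, 50-kb windows of at least 3 and 2 summits, peak middles, and leaving out the last window of each sequence kept both counts within 1.5 times. No list repeats an interval, so counting intervals once tests nothing. The brain replicate 1 ratio (2.40) was above 2 in all 13 alternatives, moving to 3.02 in 50-kb windows, 2.13 in 200-kb windows, 2.65 with at least 5 and 4 summits, 3.83 at that −log10 q limit and 2.62 against windows at least 3 windows away (added after the data were seen). The brain replicate 2 ratio (0.976) moved to 1.05 in 50-kb windows, 1.02 with at least 5 and 4 summits, 1.21 at that −log10 q limit, 1.03 at the list length of brain replicate 1 and 1.01 within sequences, so its side of 1 is not fixed. On 1 fat body list these ratios ranged from 2.13 to 2.39 and from 0.931 to 0.993. Median spacing ranged from 9131 to 14810 bp, within 1 SD between the fat body lists (3537 bp, n = 2) of the main value. That limit is wide because the 2 lists differ in length, so it says little about stability. The overlap difference (2.05 points) moved to 3.84 at that −log10 q limit and to -0.123 when 50% of the peak had to be covered, and leaving out 1 library at a time gave -6.91 to 3.19; the cause was not tested. The ratio of brain replicate 1 peaks off fat body peaks (0.981) was 1.33 at that −log10 q limit and 0.968 to 1.07 in the other 7 alternatives run, all added after the data were seen.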

Other observations

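Sequence 1 was outside the choice of windows. By the same thresholds, 2 of its 207 windows (0.966%) were dense, against 13.4% on sequences 2 to 28 and at least 4.35% on each of these. Its other windows had 1.10 and 0.727 fat body summits on average (replicates 1 and 2), 1.34 of brain replicate 1 and 4.98 of brain replicate 2. The 25 windows in which fat body replicate 1 reached its threshold and replicate 2 had no summit held 1.00 ± 1.15 brain replicate 1 summits (SD over windows), close to the 1.28 of the other windows as a whole and below the 3.06 of dense windows. The 1348 windows without a summit in either fat body list held 0.718 ± 0.923 brain replicate 1 and 8.20 ± 3.14 brain replicate 2 summits.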
